A study of Oryza sativa with 9 samples.

Results

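Leaves of rice plants (Oryza sativa) mutated in OsCOMT were set against wild-type leaves over all measured leaf functions. The comparison took 6 libraries, 3 labelled OsCOMT mutant and 3 labelled WT, out of the 9 of the series. It covered 19850 of the 37858 genes in the table, those whose FPKM averaged 1 or more across the 9 libraries. FPKM is the number of reads scaled to gene length and to the library total. All groups share the tissue, leaf, and the age, 85 days after sowing, and the labels name no treatment. The remaining 3 libraries, OE, overexpressed OsCOMT and entered the fit only to help estimate the spread between libraries. The labels give neither the type of the mutation, nor whether the mutant is 1 line, nor whether replicates are separate plants, so p-values measure the spread between these libraries, which may be technical. The hour of sampling is not stated either, so the hour and the genotype cannot be told apart in any result below.

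OsCOMT encodes a caffeic acid O-methyltransferase, which methylates lignin precursors and can carry out the last step of melatonin synthesis. A mature rice leaf captures light with antenna proteins and photosystems, fixes carbon in the Calvin cycle, and turns it into starch kept in the chloroplast and sucrose exported through the phloem. It reduces nitrate, reassimilates ammonium, balances water through aquaporins, and hands nitrogen and minerals on to the grain when it ages. Transcripts of many genes of photosynthesis, sugar and nitrogen use also rise and fall within the day under the circadian clock.

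The 9 libraries held 10659256 to 11789677 reads assigned to genes. The 3 WT libraries showed OsCOMT at 259, 237 and 228 FPKM and the 3 mutant libraries at 226, 398 and 458 FPKM, beside 1945, 3162 and 2823 FPKM in the OE libraries. Mutant replicate 1 lay below the WT libraries and mutant replicates 2 and 3 above them, and the difference did not pass the threshold (log2 fold change 0.52, SE 0.27, limma adjusted p = 0.15), although it did without mutant replicate 1 (log2 fold change 0.82, adjusted p = 0.015). Since many mutations do not remove the transcript, these values say nothing on whether the mutant label is right. Leaf markers were high in both groups, but their levels were not equally alike between groups. RCA, the rubisco activase gene, averaged 192 FPKM over the WT libraries and 2502 FPKM over the mutant libraries. The antenna gene CAB2R went the other way, with averages of 1102 and 409 FPKM. Its libraries overlapped and the difference did not pass the threshold (log2 fold change -1.31). RBCS3, a rubisco small subunit gene, was at 307, 269 and 234 FPKM in WT and 442, 324 and 291 FPKM in the mutant, and the antenna gene CAB1R was at 2355, 2365 and 2347 FPKM and 3034, 2964 and 2737 FPKM. Of 5 markers of other organs whose names could be checked, none of them of roots, OSH15 (meristem) was at 0 in all 9 libraries, and OSH1 (meristem) and MADS7 (flower) were above 0 in 1 library each and below 0.1 FPKM there. The endosperm gene GLUA1 was at 1.39, 1.41 and 2.18 FPKM in WT leaves and 1.58, 2.12 and 1.21 FPKM in mutant leaves. The floral gene MADS1 was at 3.95, 3.26 and 4.48 FPKM in WT leaves and 8.55, 9.85 and 6.80 FPKM in mutant leaves, higher in all 3 mutant libraries (log2 fold change 0.94 with SE 0.16, adjusted p = 0.0013). The summed level of these markers was 4.75 to 6.66 FPKM in WT and 8.01 to 12.0 FPKM in the mutant, and its part in the results below was not tested. In whole leaves, fewer cells of a type and less RNA per cell cannot be told apart.

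The mutant leaf differed from the wild type over a large share of its transcriptome, in both directions and mostly by small amounts. With an adjusted p under 0.05 as the threshold (limma on log2(FPKM + 1), Benjamini-Hochberg adjustment), 8333 of the 19850 genes passed, a share of 42.0%. Of all tested genes 19.6% were higher and 22.4% lower in the mutant, and 15.0% passed with a change of at least 1 on the log2 scale. The median log2 fold change over all genes was -0.01, and the middle 50% of genes lay between -0.36 and 0.28. A change smaller than 0.5 was found for 65.2% of genes, of which 2122 passed. Among genes past the threshold, 281 were higher and 247 lower by 2 to 3 on the log2 scale, 75 and 92 by 3 to 4, and 27 and 48 by 4 or more. WT and mutant libraries did not overlap for 26.0% of genes on the higher side and for 29.4% on the lower side.

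**Figure D1:**
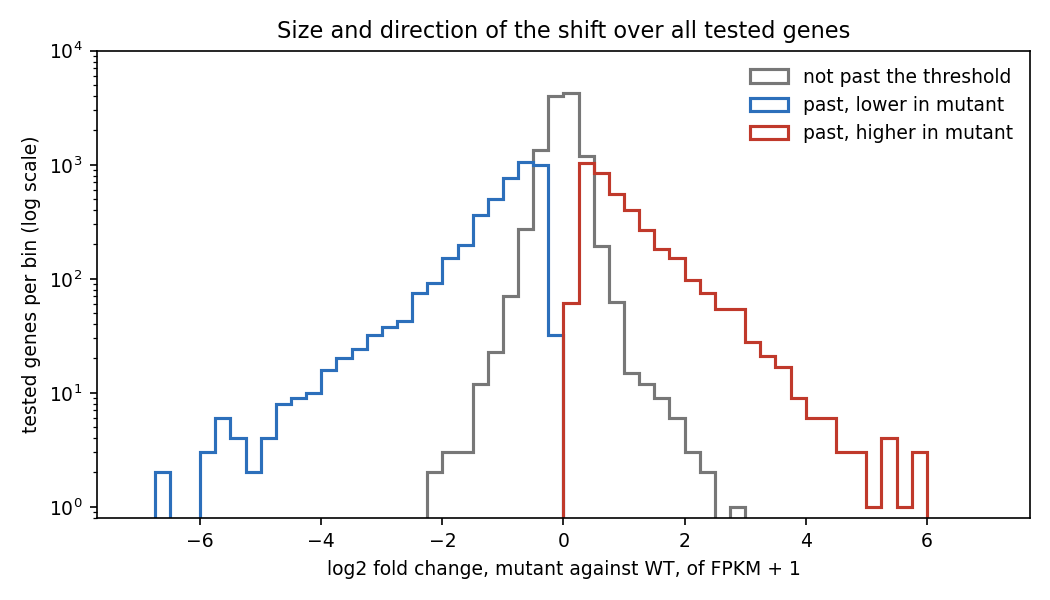
Number of tested genes (vertical axis, log scale) by log2 fold change of FPKM + 1, mutant against WT (horizontal axis, bins of 0.25), with a separate outline for genes not past, lower and higher at an adjusted p of 0.05. The distribution over all genes is centred near 0, with a median of -0.01, and its tails reach -6.66 and 5.98.

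The share of genes past the threshold was greater among strongly expressed genes. It was 36.5% of the 5128 genes with a mean of 1 to 5 FPKM, 40.0% at 5 to 20 FPKM, 45.8% at 20 to 100 FPKM, 57.3% of the 1021 genes at 100 to 500 FPKM and 50.5% of the 93 genes at 500 FPKM and over. Low genes that passed were more often lower in the mutant, 1123 against 747 higher at 1 to 5 FPKM. At 100 to 500 FPKM the shares were 29.6% higher and 27.7% lower, while of the 93 highest genes 17 were higher and 30 lower. Precision is poorer for low genes, so these shares are not a measure of how often genes of each level truly differ. The 100 highest genes of a library took 17.1% to 17.93% of its summed FPKM in WT and 15.1% to 16.5% in the mutant, with no overlap. The share past the threshold lay between 39.6% (chromosome 2) and 45.9% (chromosome 1) on all 12 chromosomes. On chromosomes 11 and 12 it was split 15.0% higher against 25.7% lower, and 15.4% against 25.5%.

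**Figure D2:**
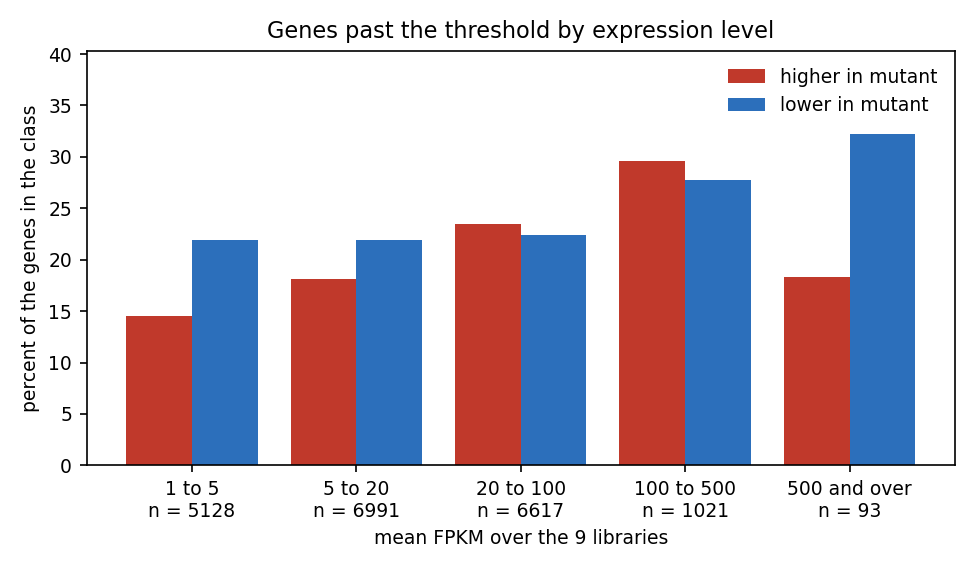
Percent of genes past the threshold and higher (red) or lower (blue) in the mutant than in WT, by mean FPKM over the 9 libraries, with the number of genes in each class. Lower genes outnumber higher ones at 1 to 5 FPKM, 1123 against 747, and the 2 shares are close at 20 to 100 FPKM, 23.4% higher against 22.4% lower.

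The largest changes among genes outside the lists below, which the table identifies by number only, were below 3 FPKM in every library of the lower group. Os12g0189300 was at 0.499, 0.813 and 0.282 FPKM in WT and 112, 93.6 and 81.7 FPKM in the mutant, a log2 fold change of 5.98 (SE 0.19). With 1.08, 0.471 and 0.946 FPKM in OE, this gene reached the level tested through the mutant libraries alone. Os06g0661200 went from 0.678, 0.552 and 2.42 FPKM to 155, 115 and 119.7 FPKM, a log2 fold change of 5.97 (SE 0.28). In the other direction, Os09g0343200 went from 195, 196 and 87.6 FPKM to 0.182, 1.00 and 0.391 FPKM, a log2 fold change of -6.66 (SE 0.30). Os01g0922700 went from 298, 236 and 147 FPKM to 0.890, 1.45 and 1.22 FPKM, a log2 fold change of -6.65 (SE 0.36). All 4 were picked for the size of their change among genes past the threshold whose groups did not overlap. Their adjusted p-values of 2.7e-07 to 2.3e-06 (limma) and the lack of overlap are therefore no further support.

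Genes of known leaf functions were followed through 41 lists that hold 408 genes whose names could be checked, of which 307 were high enough to test. Of these, 106 were higher, 62 lower and 139 did not pass, so 54.7% passed beside 42.0% of all genes, and their median log2 fold change was 0.16 beside -0.01. These shares describe the chosen genes and set no list apart from other genes. The counts of each list below are to be read beside 19.6% higher and 22.4% lower of all tested genes. Of the 307 listed genes tested, 12 averaged under 1 FPKM over the WT and OE libraries and reached the level tested through the mutant libraries alone. Of these 12, 9 were among those counted as higher, so their place in the counts was decided by the change itself. No listed gene was tested through the WT libraries alone. That check kept the OE libraries, so it could miss genes low only in the mutant that reached the level through WT and OE together. Such genes were not counted. A further list of 5 genes often used as references held 1 that passed. GAPC1, a cytosolic glyceraldehyde-3-phosphate dehydrogenase gene, was at 211, 208 and 197 FPKM in WT leaves and 335, 366 and 363 FPKM in mutant leaves (log2 fold change 0.78 with SE 0.10, adjusted p = 0.00032). EIF4A1 and REFA1, a translation initiation and an elongation factor gene, had log2 fold changes of -0.08 (adjusted p = 0.5) and -0.09 (adjusted p = 0.45). The median log2 fold change of the 5 reference genes was 0.32. Their summed level, GAPC1 included, was 617 to 705 FPKM in WT and 764 to 885 FPKM in the mutant, with no overlap.

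**Figure D3:**
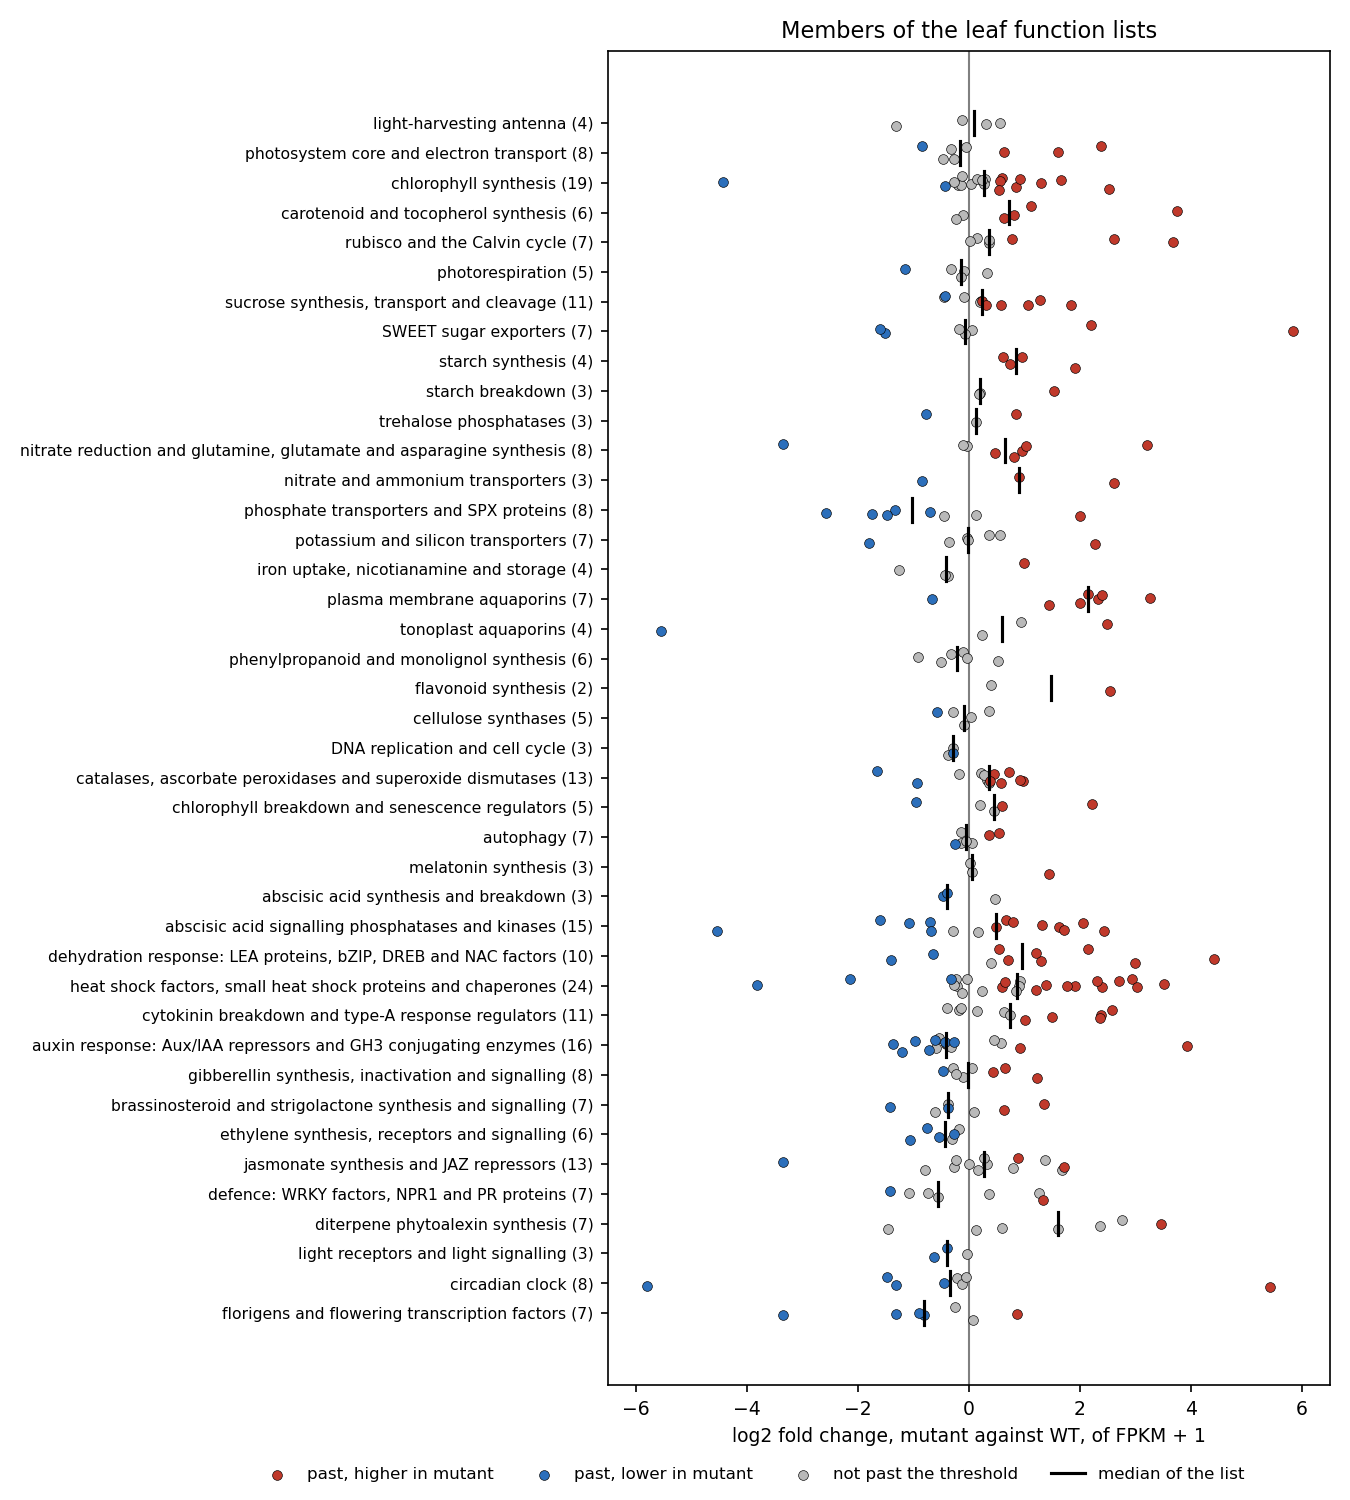
Log2 fold change of FPKM + 1, mutant against WT, for each tested member of the 41 leaf function lists (points; number tested in parentheses; vertical bars, list medians). Plasma membrane aquaporins and starch synthesis genes lie mostly to the right, with medians of 2.14 and 0.85, phosphate and flowering genes mostly to the left, with medians of -1.02 and -0.80, and the clock list spans -5.80 to 5.42.

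Light-harvesting antenna genes encode the chlorophyll-binding proteins of the thylakoid. Those of photosystem I and the minor ones of photosystem II were left out because their names could not be checked. Of the 4 photosystem II antenna genes tested, 0 were higher and 0 lower (limma), at a median log2 fold change of 0.09, and 2 had an unadjusted p under 0.05. With limma voom on reads 1 was higher and 1 lower. CAB1R (Os09g0346500) was at 2355, 2365 and 2347 FPKM in WT leaves and 3034, 2964 and 2737 FPKM in mutant leaves. All 3 mutant libraries were above the WT libraries, by 1.24-fold, but the difference missed the threshold (log2 fold change 0.30, adjusted p = 0.22), which it passed under quantile normalization (log2 fold change 0.60, adjusted p = 0.014). LHCB3 also had all mutant libraries above WT, at 1032, 1132 and 992 FPKM against 789, 768 and 597 FPKM (log2 fold change 0.56, adjusted p = 0.062). LHCB3 passed without OE replicate 1 or 3 (adjusted p from 0.014 to 0.0485, log2 fold change 0.56). CAB2R had the widest spread of the list, at 1049, 1794 and 463 FPKM in WT leaves and 290.3, 623 and 313 FPKM in mutant leaves, and its libraries overlapped (log2 fold change -1.31, adjusted p = 0.057). CAB2R passed without WT replicate 3 or mutant replicate 2 (adjusted p from 0.0091 to 0.036, log2 fold change from -1.83 to -1.66).

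Among 8 genes of the photosystem cores and the electron carriers between and after them, 3 rose, 1 fell and 4 did not pass. FD1 (Os08g0104600), the ferredoxin that takes electrons from photosystem I, was at 159, 136 and 158 FPKM in WT leaves and 839, 786 and 730.4 FPKM in mutant leaves. Every mutant library was above every WT library, by 5.21-fold on average (log2 fold change 2.37 with SE 0.18, adjusted p = 1.2e-05). PSB28 (Os01g0938100), which assists assembly of photosystem II, rose 3.09-fold, from 31.6, 26.1 and 37.0 FPKM to 112, 83.4 and 96.8 FPKM (log2 fold change 1.60 with SE 0.19, adjusted p = 0.00019). PETE, plastocyanin, went from 816, 729 and 630.0 FPKM to 1104, 1116 and 1133 FPKM (log2 fold change 0.63 with SE 0.21, adjusted p = 0.038). LFNR1, a ferredoxin-NADP reductase that passes electrons from ferredoxin to NADP, was lower, at 20.5, 14.6 and 12.3 FPKM against 31.7, 26.1 and 27.8 FPKM (log2 fold change -0.84 with SE 0.17, adjusted p = 0.0037). The call for PETE was lost without WT replicate 1, 2 or 3 or mutant replicate 1, 2 or 3 (adjusted p from 0.0527 to 0.11, log2 fold change from 0.53 to 0.72). PETC (Os07g0556200), the Rieske protein of the cytochrome b6f complex and the highest of the list, was at 1005, 936 and 1009.8 FPKM in WT leaves and 961, 969 and 931 FPKM in mutant leaves, and the groups overlapped (log2 fold change -0.04, SE 0.13, adjusted p = 0.82).

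Chlorophyll synthesis genes moved unevenly along the pathway: of 19, 8 rose, 2 fell and 9 did not pass, with a median log2 fold change of 0.26. At the entry of the pathway, HEMA1, glutamyl-tRNA reductase, rose by 0.60 on the log2 scale (SE 0.10, adjusted p = 0.0015). HEMB (Os06g0704600), aminolevulinate dehydratase, which builds the first ring, was at 18.3, 15.5 and 20.6 FPKM in WT leaves and 115, 104 and 107 FPKM in mutant leaves. The 5.98-fold difference left no overlap between groups (log2 fold change 2.52 with SE 0.14, adjusted p = 2.7e-06). Magnesium chelatase commits the porphyrin to chlorophyll. Its large subunit gene CHLH rose 2.49-fold, from 88.03, 86.0 and 79.2 FPKM to 235, 187 and 208 FPKM (log2 fold change 1.30 with SE 0.20, adjusted p = 0.00069), CHLD missed the threshold (log2 fold change 0.29) and CHLI had a log2 fold change of -0.43 (adjusted p = 0.0473, SE 0.15). The call for CHLI was lost without WT replicate 1, 2 or 3, OE replicate 2 or mutant replicate 1 or 2 (adjusted p from 0.0504 to 0.16, log2 fold change from -0.48 to -0.35).

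Further along, CAO1 (Os10g0567400), the oxygenase that makes chlorophyll b, was at 54.6, 54.5 and 56.0 FPKM in WT leaves and 194, 175 and 158 FPKM in mutant leaves. It rose 3.19-fold with no overlap (log2 fold change 1.65 with SE 0.12, adjusted p = 1.2e-05). The highest gene of the list, CHLP (Os02g0744900), a geranylgeranyl reductase that supplies the phytol tail, was at 135, 126 and 109 FPKM in WT leaves and 237, 233 and 227 FPKM in mutant leaves and also rose without overlap (log2 fold change 0.92 with SE 0.14, adjusted p = 0.00082). PORA and PORB encode light-dependent protochlorophyllide reductases. PORA (Os04g0678700) was at 71.6, 104 and 24.097 FPKM in WT leaves and 0.665, 4.54 and 1.04 FPKM in mutant leaves, lower by 32.0-fold on average and without overlap (log2 fold change -4.44 with SE 0.58, adjusted p = 0.0003). Without mutant replicate 2 its mean was lower by 78.1-fold. Without WT replicate 3 the log2 fold change of PORA was -5.04. PORB was at 138, 149 and 133 FPKM and 114, 144 and 124 FPKM and missed the threshold (log2 fold change -0.14, adjusted p = 0.52). GLK2, one of a pair of transcription factors for chloroplast genes, rose by 0.56 on the log2 scale (SE 0.14, adjusted p = 0.0096). In the neighbouring carotenoid and tocopherol list 4 of 6 genes rose and 0 fell. All 3 phytoene synthase genes, which open carotenoid synthesis, were among them. PSY2 (Os12g0626400) was at 6.0004, 3.75 and 8.13 FPKM in WT leaves and 113, 75.4 and 83.8 FPKM in mutant leaves, which is 15.2-fold higher and without overlap (log2 fold change 3.75 with SE 0.24, adjusted p = 5.7e-06). PSY3 and PSY1 rose by 1.13 and 0.64 on the log2 scale (adjusted p = 0.00044 and 0.016), and the tocopherol cyclase gene VTE1 by 0.81 (adjusted p = 0.00064). The call for PSY1 was lost without WT replicate 2 or mutant replicate 1 (adjusted p from 0.058 to 0.06, log2 fold change from 0.54 to 0.56). PDS, the phytoene desaturase gene that follows in the pathway, was the highest of the list at 144, 146 and 167 FPKM in WT and 166, 129 and 131 FPKM in the mutant and missed the threshold (log2 fold change -0.10, adjusted p = 0.5).

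Of the Calvin cycle genes, which fix carbon, 3 of 7 rose and 0 fell, a share past the threshold of 42.9% beside 42.0% of all genes. RCA (Os11g0707000), rubisco activase, which keeps rubisco active in the light, was at 193, 184 and 198 FPKM in WT leaves and 2939.8, 2587 and 1978 FPKM in mutant leaves. The lowest mutant library was 9.99 times the highest WT library, and the means differed 13.1-fold (log2 fold change 3.68 with SE 0.24, adjusted p = 6.3e-06). FBA1 (Os11g0171300), the chloroplast aldolase, was at 308, 237 and 269 FPKM in WT leaves and 1850.3, 1714 and 1429 FPKM in mutant leaves, again without overlap and 6.14-fold higher (log2 fold change 2.61 with SE 0.22, adjusted p = 2.3e-05). CPFBP1, the chloroplast fructose bisphosphatase, rose less, from 227, 208 and 218 FPKM to 389, 389 and 347 FPKM (log2 fold change 0.78 with SE 0.12, adjusted p = 0.00085). The rubisco small subunit genes RBCS3 and RBCS2 missed the threshold (log2 fold change 0.37 and 0.35, adjusted p = 0.22 and 0.52), and as near-identical copies they may share reads. Of 5 photorespiration genes 1 fell and 0 rose. GLO4 (Os07g0616500), a glycolate oxidase gene, was at 129, 133 and 108 FPKM in WT leaves and 42.8, 66.3 and 59.1 FPKM in mutant leaves, lower in every mutant library (log2 fold change -1.14 with SE 0.15, adjusted p = 0.00031). The highest of that list, GLO1, which encodes the same activity, was at 206, 189 and 171 FPKM and 208, 177 and 152 FPKM and missed the threshold (log2 fold change -0.08, adjusted p = 0.69).

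Leaves make sucrose and load it into the phloem for export. Of 11 tested genes of sucrose synthesis, transport and cleavage, 6 rose and 1 fell, and the other 7 of the list lay below the level tested. FBP1 (Os01g0866400), the cytosolic fructose bisphosphatase on the way to sucrose, was at 70.8, 41.6 and 44.0 FPKM in WT leaves and 244, 198 and 126 FPKM in mutant leaves. The groups did not overlap, and mutant replicate 3 was the lowest of the mutant libraries (log2 fold change 1.83 with SE 0.31, adjusted p = 0.0012). SUT2 (Os12g0641400), which encodes a sucrose transporter, was at 41.0, 40.8 and 57.6 FPKM in WT leaves and 97.9, 88.3 and 105 FPKM in mutant leaves, 2.09-fold higher without overlap (log2 fold change 1.06 with SE 0.13, adjusted p = 0.00022). SUT1, the transporter tied to phloem loading, was at 56.5, 65.2 and 46.4 FPKM and 139, 135 and 132 FPKM and rose by 1.27 on the log2 scale. SPP2, a sucrose phosphatase gene of the last step of synthesis, rose from 38.7, 38.1 and 37.1 FPKM to 58.7, 57.5 and 55.5 FPKM (log2 fold change 0.58 with SE 0.09, adjusted p = 0.00086). Genes of sucrose cleavage were at lower levels. The sucrose synthase genes SUS2 and SUS4 had log2 fold changes of -0.43 (adjusted p = 0.043, SE 0.15) and 0.30 (adjusted p = 0.041, SE 0.10). The call for SUS2 was lost without WT replicate 1, 2 or 3, OE replicate 1, 2 or 3 or mutant replicate 1 or 2 (adjusted p from 0.0509 to 0.14, log2 fold change from -0.46 to -0.32). The call for SUS4 was lost without WT replicate 1, 2 or 3, OE replicate 1, 2 or 3 or mutant replicate 1 or 3 (adjusted p from 0.0507 to 0.13, log2 fold change from 0.25 to 0.32). The cell wall invertase gene CIN1 missed the threshold (log2 fold change -0.45, adjusted p = 0.13). CIN1 passed without OE replicate 1 (adjusted p = 0.027, log2 fold change -0.45).

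The SWEET family, membrane proteins that let sugars out of cells or across the vacuole, held 7 tested members, of which 2 rose, 2 fell and 3 did not pass. SWEET2B, counted among those that rose, reached the level tested through the mutant libraries alone. SWEET2B (Os01g0700100) was at 0.376, 0.588 and 0.997 FPKM in WT leaves and 124, 83.2 and 76.1 FPKM in mutant leaves. It was below 1 FPKM in every WT library, and the lowest mutant library was 76.4 times the highest WT library (log2 fold change 5.83 with SE 0.27, adjusted p = 1.3e-06). SWEET13 (Os12g0476200) was at 9.77, 11.6 and 13.1 FPKM in WT leaves and 68.7, 64.3 and 40.1 FPKM in mutant leaves, 5.02-fold higher without overlap (log2 fold change 2.203 with SE 0.20, adjusted p = 3.1e-05). SWEET4 (Os02g0301100), the most abundant member over all libraries, was at 77.3, 77.3 and 53.1 FPKM in WT leaves and 18.23, 29.7 and 19.4 FPKM in mutant leaves, and fell in all 3 mutant libraries (log2 fold change -1.60 with SE 0.20, adjusted p = 0.0002). SWEET11 and SWEET15, known from seed filling, lay below the level tested. SWEET11 was at 0 in all 9 libraries, and SWEET15 had no reads in WT or OE and reached 2.47, 1.38 and 0.748 FPKM in mutant leaves, with no test.

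All 4 tested starch synthesis genes rose, and the remaining member, SSIIA, lay below the level tested. SS1 (Os06g0160700), a starch synthase gene, was at 15.6, 14.01 and 17.8 FPKM in WT leaves and 51.5, 69.7 and 67.4 FPKM in mutant leaves, 3.98-fold higher (log2 fold change 1.92 with SE 0.23, adjusted p = 0.00018). SBE1 (Os06g0726400), a branching enzyme gene and the highest of the list, was at 39.3, 36.0 and 35.7 FPKM in WT leaves and 57.3, 63.5 and 66.8 FPKM in mutant leaves (log2 fold change 0.74 with SE 0.09, adjusted p = 0.00017). AGPS2, a small subunit of the ADP-glucose pyrophosphorylase that supplies the glucose donor, and SSIIB, another starch synthase, rose by 0.96 and 0.61 on the log2 scale (adjusted p = 0.0005 and 0.0028). In none of these 4 genes did WT and mutant libraries overlap. Of 3 tested breakdown genes 1 rose, the plastid disproportionating enzyme gene DPE1 (Os07g0627000), at 5.03, 5.29 and 6.36 FPKM in WT leaves and 19.1, 17.02 and 17.68 FPKM in mutant leaves (log2 fold change 1.53 with SE 0.11, adjusted p = 8.9e-06). DPE2, its cytosolic counterpart and the highest of the list, was at 129, 121 and 121 FPKM and 115, 151 and 168 FPKM and missed the threshold (log2 fold change 0.21, adjusted p = 0.39). Of 3 trehalose phosphatase genes, whose product removes a sugar signal, TPP2 rose by 0.85 (adjusted p = 0.011), TPP7 had a log2 fold change of -0.78 (adjusted p = 0.017, SE 0.22), and TPP6 missed the threshold (log2 fold change 0.14). The call for TPP7 was lost without WT replicate 2 or mutant replicate 3 (adjusted p from 0.056 to 0.057, log2 fold change from -0.73 to -0.69).

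**Figure D4:**
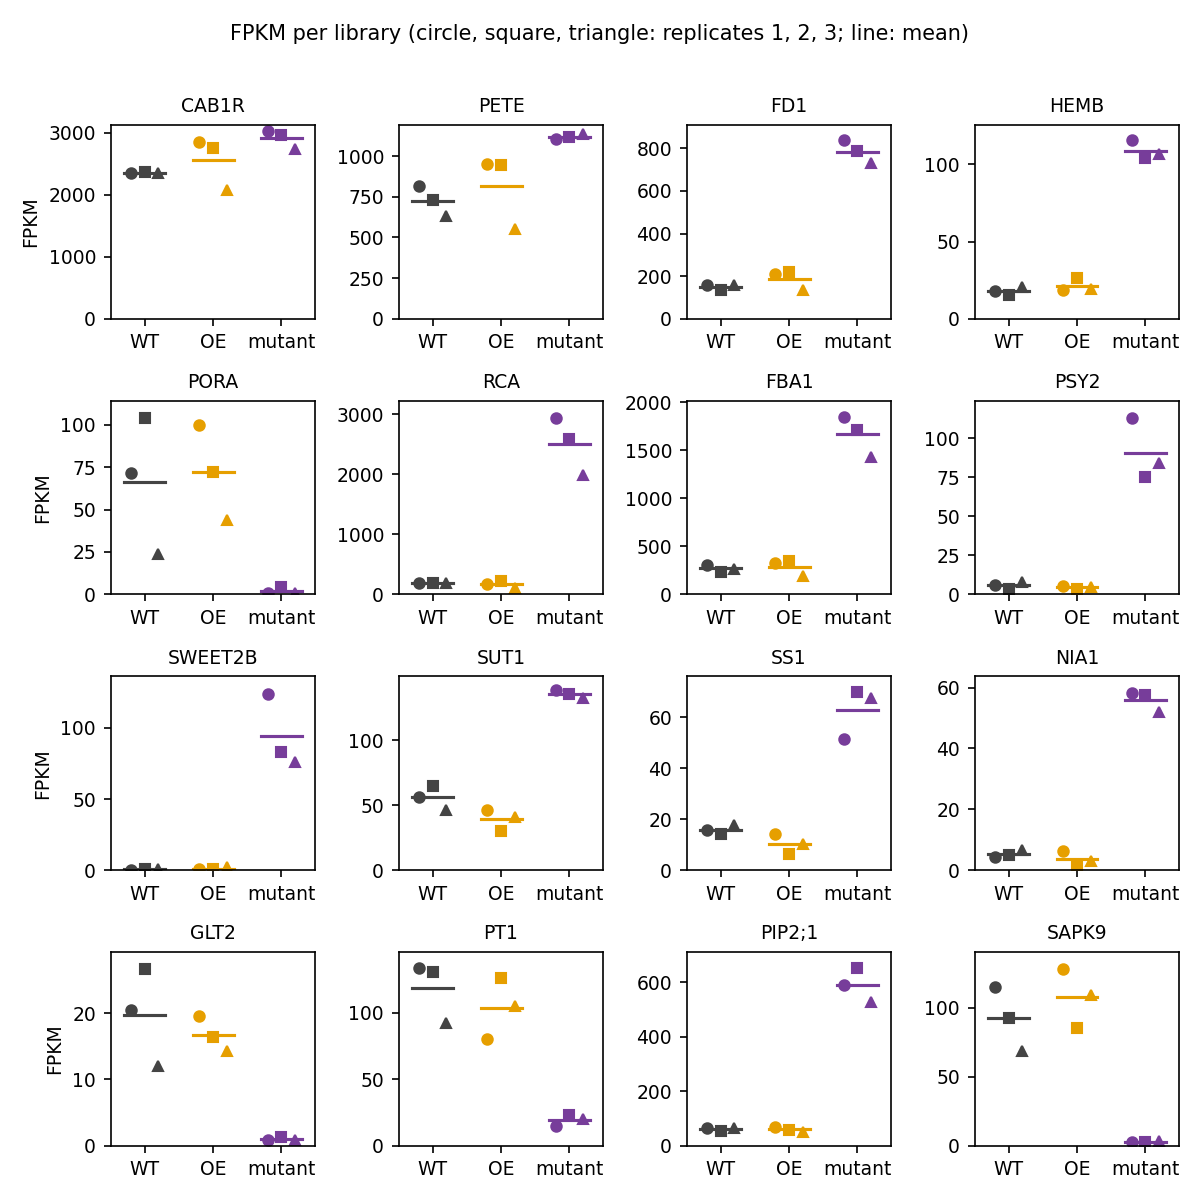
FPKM per library (vertical axes, linear, from 0) for 16 genes of leaf functions in WT, OE and mutant leaves; circles, squares and triangles are replicates 1, 2 and 3 and lines are means. In RCA, FBA1, PSY2, SWEET2B, NIA1 and PIP2;1 every mutant library is above all WT libraries, in PORA, GLT2, PT1 and SAPK9 every mutant library is below them, and the OE libraries of RCA lie at 174, 227 and 111 FPKM.

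Nitrogen assimilation genes rose more often than they fell, 5 against 1 of 8 tested, with a median log2 fold change of 0.64. NIA1 (Os08g0468100), nitrate reductase, the first step from nitrate, was at 4.33, 4.80 and 6.51 FPKM in WT leaves and 58.1, 57.5 and 51.9 FPKM in mutant leaves. The mutant level was 10.7-fold that of WT with no overlap (log2 fold change 3.21 with SE 0.30, adjusted p = 3.7e-05). GS1;1 (Os02g0735200), the main cytosolic glutamine synthetase and the highest of the list, was at 314, 311 and 335 FPKM in WT leaves and 612, 652 and 604 FPKM in mutant leaves (log2 fold change 0.96 with SE 0.09, adjusted p = 4.4e-05). GS2, its chloroplast form, which recaptures ammonium from photorespiration, went from 188, 148 and 161 FPKM to 339, 287 and 254 FPKM (log2 fold change 0.82 with SE 0.16, adjusted p = 0.0031). Glutamate synthase has an NADH-dependent and a ferredoxin-dependent form. GLT2 (Os05g0555600), an NADH-dependent form, was at 20.5, 26.6 and 12.0 FPKM in WT leaves and 0.784, 1.26 and 0.818 FPKM in mutant leaves, 20.7-fold lower (log2 fold change -3.35 with SE 0.25, adjusted p = 1.2e-05), while GLU, the ferredoxin-dependent form, went from 338, 265 and 287 FPKM to 496, 400.5 and 345 FPKM (log2 fold change 0.47 with SE 0.15, adjusted p = 0.032). The call for GLU was lost without WT replicate 2 or 3 or mutant replicate 1 or 2 (adjusted p from 0.064 to 0.11, log2 fold change from 0.33 to 0.49). The glutamate dehydrogenase genes GDH1 and GDH2, active in nitrogen release, did not pass (adjusted p = 0.88 and 0.63).

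Of 9 nitrate and ammonium transporter genes 3 were high enough to test and all of these passed. AMT1;1 (Os04g0509600), a high-affinity ammonium transporter gene, was at 5.98, 6.43 and 7.66 FPKM in WT leaves and 48.0, 52.0 and 39.2 FPKM in mutant leaves, 6.93-fold higher without overlap (log2 fold change 2.62 with SE 0.14, adjusted p = 2.3e-06). AMT2;1 was lower, at 3.25, 3.64 and 4.32 FPKM against 7.01, 8.07 and 7.41 FPKM (log2 fold change -0.85 with SE 0.13, adjusted p = 0.00073). NRT2.3, a nitrate transporter gene, stayed low at 1.30, 0.981 and 1.02 FPKM and 2.204, 4.85 and 2.197 FPKM but had no overlap (log2 fold change 0.90 with SE 0.23, adjusted p = 0.01).

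Genes of phosphate transport and sensing were mostly lower, 5 against 1 higher of 8 tested, with a median of -1.02. PT1 (Os03g0150600), a phosphate transporter gene and the highest of the list, was at 134, 131 and 92.5 FPKM in WT leaves and 14.5, 23.16 and 20.1 FPKM in mutant leaves. The groups were far apart, with the mutant 6.18-fold lower (log2 fold change -2.57 with SE 0.22, adjusted p = 2.2e-05). PT8, another transporter of the family, fell from 32.8, 30.1 and 23.5 FPKM to 7.62, 14.1 and 11.3 FPKM (log2 fold change -1.33 with SE 0.20, adjusted p = 0.00059). SPX2 (Os02g0202200), SPX1 and SPX4 encode SPX domain proteins that sense phosphate and restrain the starvation regulator PHR2. They fell by 1.74, 1.48 and 0.71 on the log2 scale (adjusted p = 0.00027, 0.0014 and 0.00043), SPX2 from 9.91, 10.5 and 9.26 FPKM to 2.43, 1.67 and 2.72 FPKM, while PHR2 itself was at 51.2, 47.0 and 51.4 FPKM in WT leaves and 54.5, 55.6 and 54.2 FPKM in mutant leaves and missed the threshold (log2 fold change 0.13, adjusted p = 0.17). PHO1;2 (Os02g0809800), which exports phosphate from cells, went the other way, at 2.29, 2.81 and 3.14 FPKM in WT leaves and 17.1, 11.7 and 13.6 FPKM in mutant leaves (log2 fold change 2.01 with SE 0.17, adjusted p = 2.3e-05).

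Among 7 potassium and silicon transporter genes 1 rose and 1 fell. HAK1 (Os04g0401700), a high-affinity potassium transporter gene, was at 37.1, 44.0 and 51.9 FPKM in WT leaves and 6.97, 17.1 and 14.04 FPKM in mutant leaves, lower in every mutant library (log2 fold change -1.80 with SE 0.32, adjusted p = 0.0017). LSI1 (Os02g0745100), a silicon channel best known from roots, was at 13.5, 8.48 and 7.83 FPKM in WT leaves and 56.3, 56.2 and 40.0 FPKM in mutant leaves (log2 fold change 2.26 with SE 0.25, adjusted p = 0.00012). Of 4 tested iron genes 1 rose, IRO3, a transcription factor of the iron deficiency response, from 11.2, 8.18 and 12.1 FPKM to 26.9, 19.8 and 19.0 FPKM (log2 fold change 0.99 with SE 0.18, adjusted p = 0.0016). VIT2, a vacuolar iron transporter gene and the highest of that list, was at 12.3, 17.6 and 31.7 FPKM in WT leaves and 1.87, 11.04 and 16.3 FPKM in mutant leaves and overlapped between groups (log2 fold change -1.25, adjusted p = 0.11). VIT2 passed without mutant replicate 3 (adjusted p = 0.035, log2 fold change -1.77).

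Plasma membrane aquaporins, the PIP channels that carry water across cell membranes, were mostly higher in the mutant: 6 of 7 tested genes rose and 1 fell, with a median log2 fold change of 2.14, and the other 4 lay below the level tested. PIP2;1 (Os07g0448800) was at 63.9, 54.8 and 63.2 FPKM in WT leaves and 591, 651 and 527 FPKM in mutant leaves. Its lowest mutant library was 8.25 times its highest WT library (log2 fold change 3.26 with SE 0.12, adjusted p = 6.9e-07). PIP1;3 (Os02g0823100), the highest of the list, was at 105, 71.5 and 134 FPKM in WT leaves and 451, 575 and 501 FPKM in mutant leaves, 4.92-fold higher without overlap (log2 fold change 2.33 with SE 0.20, adjusted p = 2.4e-05). PIP1;2 (Os04g0559700) was at 20.5, 15.6 and 17.6 FPKM in WT leaves and 74.5, 76.3 and 70.9 FPKM in mutant leaves (log2 fold change 1.99 with SE 0.11, adjusted p = 2.3e-06). PIP1;1, PIP2;2 and PIP2;4 rose by 1.44, 2.40 and 2.14 on the log2 scale (adjusted p = 3.2e-05, 3.7e-05 and 0.00014), PIP2;4 from 0.647, 0.141 and 0.440 FPKM in WT. PIP2;4, counted among those that rose, reached the level tested through the mutant libraries alone. PIP2;7 was the exception, at 106, 108 and 154 FPKM in the mutant against 173, 209.7 and 192 FPKM in WT (log2 fold change -0.66 with SE 0.16, adjusted p = 0.0088).

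The aquaporins of the tonoplast, the membrane of the vacuole, were divided, with 1 of 4 higher and 1 lower. TIP4;1 (Os05g0231700) was at 168, 174 and 111 FPKM in WT leaves and 1.2502, 2.62 and 3.02 FPKM in mutant leaves. It was among the largest falls of all listed genes, 65.8-fold lower (log2 fold change -5.54 with SE 0.26, adjusted p = 1.3e-06). TIP1;1 (Os03g0146100) was at 21.6, 15.3 and 12.7 FPKM in WT leaves and 113, 108 and 72.0 FPKM in mutant leaves (log2 fold change 2.49 with SE 0.26, adjusted p = 7e-05). TIP1;2, the highest of the list, was at 259, 167 and 187 FPKM in WT leaves and 459, 587 and 215 FPKM in mutant leaves. Mutant replicate 3 overlapped with WT and the difference missed the threshold (log2 fold change 0.95, adjusted p = 0.057). TIP1;2 passed without mutant replicate 3 (adjusted p = 0.004, log2 fold change 1.37).

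In the lignin branch in which OsCOMT itself acts, no tested gene was past the threshold (limma). The test covered part of the branch only. Genes of other steps, such as cinnamate hydroxylase, coumarate hydroxylase and caffeoyl-CoA methyltransferase, were left out because their names could not be checked. Of 6 tested phenylpropanoid and monolignol genes, OsCOMT included, 0 were higher and 0 lower, with a median log2 fold change of -0.21, and 1 of them, PAL1, had an unadjusted p under 0.05. With limma voom on reads 0 passed as well. In 2 of the 6 genes, PAL1 among them, every mutant library lay below every WT library, beside 29.4% of all tested genes. PAL1, which opens the pathway from phenylalanine, was at 117, 100.1 and 79.3 FPKM in WT leaves and 30.6, 60.7 and 71.8 FPKM in mutant leaves, below WT in all 3 mutant libraries (log2 fold change -0.92, adjusted p = 0.06). PAL1 passed without OE replicate 1 or mutant replicate 3 (adjusted p from 0.033 to 0.038, log2 fold change from -1.16 to -0.92). CAD2, the last step of monolignol synthesis, was at 111, 111 and 113 FPKM in WT leaves and 64.2, 116 and 175 FPKM in mutant leaves, with mutant replicate 1 below and mutant replicates 2 and 3 above WT (log2 fold change -0.03, adjusted p = 0.96). In the flavonoid branch CHS1, chalcone synthase, was at 5.17, 28.0 and 8.11 FPKM in WT leaves and 65.5, 38.8 and 122 FPKM in mutant leaves, without overlap but with a wide spread in both groups (log2 fold change 2.55 with SE 0.66, adjusted p = 0.012). The call for CHS1 was lost without WT replicate 1 (adjusted p = 0.0504, log2 fold change 2.08). Without WT replicate 2 the log2 fold change of CHS1 was 3.20. CHI, chalcone isomerase and the highest of that branch, had a log2 fold change of 0.40 (adjusted p = 0.2). The cellulose synthase genes of the primary wall CESA3 and CESA1 were at 8.81 ± 1.06 and 6.11 ± 0.917 FPKM in WT and at 9.16 ± 1.76 and 5.69 ± 1.18 FPKM in the mutant (SD, n = 3) and did not pass. Of 5 tested members of that family 1 passed, CESA2, with a log2 fold change of -0.57 (adjusted p = 0.027, SE 0.18). The call for CESA2 was lost without WT replicate 1 or 2 or mutant replicate 1 or 2 (adjusted p from 0.067 to 0.092, log2 fold change from -0.56 to -0.41).

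Of 13 tested genes for enzymes that remove reactive oxygen, 6 rose and 2 fell. Those that rose were ascorbate peroxidases and superoxide dismutases, and both that fell were catalases. APX2 (Os07g0694700), a cytosolic ascorbate peroxidase gene and the highest of the list, was at 712, 621 and 759 FPKM in WT leaves and 1523, 1316 and 1292 FPKM in mutant leaves, 1.97-fold higher without overlap (log2 fold change 0.98 with SE 0.14, adjusted p = 0.00052). SODCC1, a copper-zinc superoxide dismutase gene, went from 241, 238 and 189.8 FPKM to 436, 453 and 379.8 FPKM (log2 fold change 0.93 with SE 0.20, adjusted p = 0.0052), and APX5 from 26.0, 29.8 and 29.9 FPKM to 45.6, 48.1 and 49.3 FPKM (log2 fold change 0.72 with SE 0.10, adjusted p = 0.00035). CATB (Os06g0727200), a catalase gene, was at 118, 122 and 117 FPKM in WT leaves and 62.8, 63.7 and 59.3 FPKM in mutant leaves, 1.92-fold lower without overlap (log2 fold change -0.93 with SE 0.08, adjusted p = 2.4e-05). CATA (Os02g0115700), at 991, 1023 and 492 FPKM in WT leaves and 107, 315 and 466 FPKM in mutant leaves, varied widely in both groups, with no overlap (log2 fold change -1.66 with SE 0.49, adjusted p = 0.022). The call for CATA was lost without WT replicate 1 or 2 (adjusted p = 0.075, log2 fold change from -1.50 to -1.47). Without mutant replicate 1 the log2 fold change of CATA was -1.05.

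Of 5 genes of chlorophyll breakdown and its regulators 2 rose and 1 fell. NYC1, which reduces chlorophyll b at the start of its breakdown and was the highest of the list, was at 285, 296 and 277 FPKM in WT leaves and 192, 129 and 129 FPKM in mutant leaves (log2 fold change -0.95 with SE 0.16, adjusted p = 0.0014). SGR, whose product removes the magnesium of chlorophyll a, was at 23.16, 62.3 and 115 FPKM in WT leaves and 322, 227 and 243 FPKM in mutant leaves. WT libraries spread widely and still lay below every mutant library (log2 fold change 2.22 with SE 0.51, adjusted p = 0.0069). Without WT replicate 1 the log2 fold change of SGR was 1.61. Its mean was 3.95-fold higher in the mutant, and 6.19-fold without WT replicate 3. RCCR1, near the end of the pathway, missed the threshold (log2 fold change 0.20, adjusted p = 0.54). Of 7 autophagy genes, which recycle cell contents in ageing leaves, 2 rose, 1 fell and 4 did not pass, a share past the threshold of 42.9% beside 42.0% of all genes. ATG4B, the protease that processes the autophagosome protein ATG8, rose from 16.8, 16.6 and 17.41 FPKM to 28.2, 23.23 and 23.8 FPKM (log2 fold change 0.54 with SE 0.09, adjusted p = 0.0013). ATG8C, the highest of the list, was at 205, 196 and 205 FPKM and 193, 178 and 181 FPKM and missed the threshold (log2 fold change -0.14, adjusted p = 0.2). In the melatonin list 1 of 3 rose, ASMT1, at 1.79, 1.98 and 3.76 FPKM in WT leaves and 8.48, 12.9 and 4.97 FPKM in mutant leaves, an acetylserotonin methyltransferase gene of the last step (log2 fold change 1.44 with SE 0.33, adjusted p = 0.0063).

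Abscisic acid, the hormone of water deficit and of ageing leaves, acts through a short chain: receptors restrain clade A phosphatases, which restrain SnRK2 kinases, which in turn activate bZIP factors and dehydration genes. Of 15 tested signalling genes 8 rose, 5 fell and 2 did not pass. All 5 tested phosphatase genes rose. PP2C68 (Os09g0325700) was at 4.59, 6.79 and 2.97 FPKM in WT leaves and 30.5, 33.0 and 24.3 FPKM in mutant leaves, 6.12-fold higher (log2 fold change 2.43 with SE 0.23, adjusted p = 4.5e-05), and PP2C06 (Os01g0583100) was at 23.9, 23.9 and 20.8 FPKM in WT leaves and 131, 86.8 and 84.4 FPKM in mutant leaves (log2 fold change 2.06 with SE 0.22, adjusted p = 8.8e-05). The kinase genes, named SAPK, went both ways. SAPK9 (Os12g0586100) was at 115, 92.8 and 68.7 FPKM in WT leaves and 2.81, 2.86 and 3.13 FPKM in mutant leaves, 31.5-fold lower without overlap (log2 fold change -4.54 with SE 0.19, adjusted p = 9.7e-07). SAPK2 (Os07g0622000), the highest of the list, was at 129.7, 99.6 and 99.6 FPKM in WT leaves and 33.8, 38.5 and 34.0 FPKM in mutant leaves (log2 fold change -1.59 with SE 0.14, adjusted p = 2.5e-05), and SAPK3 rose from 20.9, 27.3 and 20.4 FPKM to 69.3, 78.6 and 81.8 FPKM (log2 fold change 1.71 with SE 0.14, adjusted p = 1.8e-05). SAPK10, SAPK5 and SAPK6 fell by 1.08, 0.71 and 0.69 on the log2 scale, and SAPK1 and SAPK4 rose by 1.61 and 0.79, all past the threshold. The call for SAPK6 was lost without WT replicate 1 (adjusted p = 0.059, log2 fold change -0.63).

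Of 3 tested genes that make or break down the hormone, 2 fell and 0 rose. ZEP, zeaxanthin epoxidase, early in its synthesis, was at 734, 730.0 and 951 FPKM in WT leaves and 649.9, 565 and 531 FPKM in mutant leaves (log2 fold change -0.46 with SE 0.14, adjusted p = 0.025). The call for ZEP was lost without WT replicate 3 or mutant replicate 2 or 3 (adjusted p from 0.068 to 0.079, log2 fold change from -0.44 to -0.34). NCED3, at the step held to limit synthesis, lay below the level tested. In the dehydration list 7 of 10 tested genes rose and 2 fell. LEA3 and RAB16A, counted among those that rose, reached the level tested through the mutant libraries alone. BZIP23 (Os02g0766700), a transcription factor of the abscisic acid response, was at 9.03, 8.82 and 7.45 FPKM in WT leaves and 48.7, 43.6 and 31.5 FPKM in mutant leaves (log2 fold change 2.15 with SE 0.16, adjusted p = 1.4e-05). LEA3 (Os05g0542500), a late embryogenesis abundant protein that protects drying cells, had 0 reads in the WT libraries and 18.5, 40.8 and 11.1 FPKM in the mutant libraries, at least 340.4-fold higher against a floor of 3 reads over the group (adjusted p = 1.9e-05). Without mutant replicate 2 it was at least 215-fold higher. RAB16A, a dehydrin gene, likewise had 0 reads in WT and was at 1.95, 20.8 and 6.73 FPKM in the mutant, at least 79.0-fold higher (adjusted p = 0.0022). Mutant replicate 2 was the highest, and without it the gene was at least 35.5-fold higher. Without mutant replicate 1 the log2 fold change of RAB16A was 3.70. Without mutant replicate 2 the log2 fold change of RAB16A was 2.26. NAC6, the highest of the list, went from 161, 149 and 195 FPKM to 349, 229.7 and 254 FPKM (log2 fold change 0.70 with SE 0.16, adjusted p = 0.0062), and the drought factor DREB2B fell from 73.4, 81.3 and 73.2 FPKM to 46.5, 51.3 and 46.9 FPKM (log2 fold change -0.64 with SE 0.08, adjusted p = 0.00028).

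Heat shock factors, small heat shock proteins and chaperones held 24 tested genes, of which 12 rose, 3 fell and 9 did not pass. HSP17.9, HSP101, HSFA2A and HSFA6B, counted among those that rose, reached the level tested through the mutant libraries alone. HSP24.1 (Os02g0758000), a small heat shock protein gene, was at 4.88, 6.15 and 6.41 FPKM in WT leaves and 104, 165 and 25.3 FPKM in mutant leaves. All mutant libraries were above WT, but mutant replicate 3 was far below the other mutant libraries (log2 fold change 3.51 with SE 0.53, adjusted p = 0.00069). Without mutant replicate 3 the log2 fold change of HSP24.1 was 4.28. HSP81-1 (Os08g0500700), an HSP90 chaperone gene and the highest of the list, was at 54.6, 53.5 and 47.5 FPKM in WT leaves and 253, 235 and 94.99 FPKM in mutant leaves (log2 fold change 1.77 with SE 0.31, adjusted p = 0.0015), again lowest in mutant replicate 3. HSFB2C (Os09g0526600) was at 4.71, 3.55 and 4.59 FPKM in WT leaves and 50.4, 49.5 and 23.7 FPKM in mutant leaves (log2 fold change 2.93 with SE 0.25, adjusted p = 2.5e-05), and CLPB3, a mitochondrial disaggregase gene, went from 6.99, 5.25 and 6.58 FPKM to 47.7, 42.7 and 25.1 FPKM (log2 fold change 2.40 with SE 0.21, adjusted p = 2.7e-05). HSFC1B, by contrast, was at 1.59, 1.36 and 2.53 FPKM against 35.3, 40.4 and 38.9 FPKM in WT, 20.9-fold lower (log2 fold change -3.81 with SE 0.20, adjusted p = 2e-06). The summed level of the list was 385 to 418 FPKM in WT, and 910.3, 1084 and 498 FPKM in mutant replicates 1 to 3. Small heat shock protein genes are close copies of one another and may share reads.

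**Figure D5:**
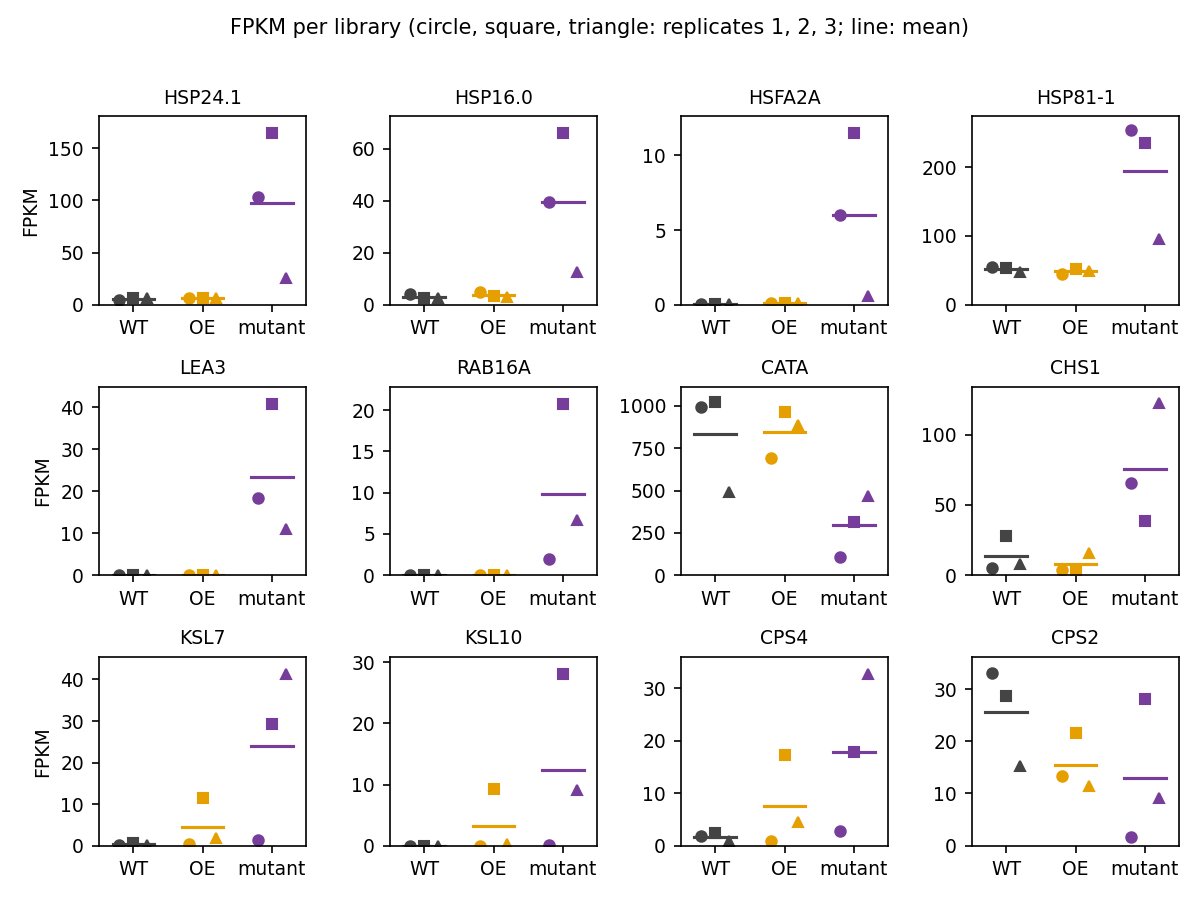
FPKM per library (vertical axes, linear, from 0) for 12 genes of heat, dehydration, oxidative and defence responses in WT, OE and mutant leaves; circles, squares and triangles are replicates 1, 2 and 3 and lines are means. Mutant replicate 3 is the lowest mutant library for HSP24.1, HSP16.0, HSFA2A and HSP81-1, and mutant replicate 1 is the lowest for CATA, KSL7, KSL10, CPS4 and CPS2.

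Auxin directs cell growth. Of 16 tested auxin response genes 7 fell and 2 rose, at a median of -0.42, and the other 15 lay below the level tested. IAA17 (Os05g0230700) and IAA13 encode Aux/IAA repressors, which auxin both induces and destroys. IAA17, the highest of the list, was at 104, 125 and 98.9 FPKM in WT leaves and 38.0, 56.7 and 47.4 FPKM in mutant leaves (log2 fold change -1.20 with SE 0.18, adjusted p = 0.00059), and IAA13 at 73.8, 87.6 and 88.6 FPKM in WT leaves and 26.5, 36.1 and 33.0 FPKM in mutant leaves (log2 fold change -1.37 with SE 0.14, adjusted p = 6.4e-05). GH3-2 (Os01g0764800), which attaches auxin to amino acids and so removes it, was at 0.480, 2.31 and 3.42 FPKM in WT leaves and 44.7, 44.1 and 35.5 FPKM in mutant leaves and rose without overlap (log2 fold change 3.92 with SE 0.35, adjusted p = 2.9e-05). Of 8 gibberellin genes 3 rose and 1 fell. GA20OX2, the synthesis gene mutated in semidwarf rice, went from 19.98, 31.4 and 21.0 FPKM to 54.3, 61.2 and 55.7 FPKM (log2 fold change 1.24 with SE 0.19, adjusted p = 0.00085), and the receptor gene GID1 from 24.7, 25.7 and 25.9 FPKM to 34.7, 34.0 and 35.1 FPKM (log2 fold change 0.43 with SE 0.08, adjusted p = 0.0018). SLR1, the repressor that the receptor targets, was the highest of the list at 32.1, 37.8 and 33.5 FPKM in WT leaves and 32.2, 35.8 and 40.1 FPKM in mutant leaves and missed the threshold (log2 fold change 0.06, adjusted p = 0.74).

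Of 11 cytokinin genes 5 rose and 0 fell. CKX2, counted among those that rose, reached the level tested through the mutant libraries alone. CKX4 and CKX11 encode oxidases that break the hormone down. CKX4 was at 15.9, 11.03 and 8.14 FPKM in WT leaves and 102, 72.0 and 52.2 FPKM in mutant leaves, without overlap (log2 fold change 2.58 with SE 0.26, adjusted p = 6.2e-05), and CKX11 went from 3.22, 13.7 and 7.92 FPKM to 36.6, 52.0 and 36.3 FPKM (log2 fold change 2.36 with SE 0.40, adjusted p = 0.0013). RR2, a response regulator gene induced by cytokinin and the highest of the list, was at 52.0, 45.5 and 22.6 FPKM in WT leaves and 51.1, 82.4 and 48.3 FPKM in mutant leaves and overlapped (log2 fold change 0.63, adjusted p = 0.13). Ethylene genes were lower or not past. Of 6 tested 4 fell and 0 rose, and those that fell were 3 receptor genes and EIL1. The receptor gene ETR2 (Os04g0169100) was at 8.73, 9.24 and 7.75 FPKM in WT leaves and 3.27, 4.14 and 3.34 FPKM in mutant leaves (log2 fold change -1.06 with SE 0.12, adjusted p = 0.00011), ERS2 fell by 0.75 and ETR3 by 0.54 on the log2 scale (adjusted p = 0.0014 and 0.0095). EIL1, a transcription factor downstream of them and the highest of the list, went from 41.5, 44.5 and 43.5 FPKM to 35.8, 32.9 and 38.3 FPKM (log2 fold change -0.27 with SE 0.08, adjusted p = 0.021). The call for EIL1 was lost without WT replicate 2 or 3 or mutant replicate 2 (adjusted p from 0.059 to 0.077, log2 fold change from -0.27 to -0.22). Brassinosteroid and strigolactone genes were split, 2 higher and 2 lower of 7. The brassinosteroid synthesis gene CYP90B2 (Os03g0227700) fell from 12.4, 9.76 and 8.25 FPKM to 2.43, 3.06 and 3.91 FPKM (log2 fold change -1.43 with SE 0.18, adjusted p = 0.00025), while CYP85A1, a later step, rose from 6.03, 8.001 and 11.6 FPKM to 28.2, 12.2 and 33.2 FPKM (log2 fold change 1.35 with SE 0.35, adjusted p = 0.012). D14, the strigolactone receptor and the highest of the list, was at 120.2, 128 and 75.3 FPKM in WT leaves and 67.0, 78.0 and 99.8 FPKM in mutant leaves and missed the threshold (log2 fold change -0.38, adjusted p = 0.16). D14 passed without WT replicate 3 (adjusted p = 0.014, log2 fold change -0.62).

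Jasmonate is a wound and defence hormone. Of 13 tested jasmonate genes 2 rose, 1 fell and 10 did not pass. LOX7 (Os08g0508800), a lipoxygenase gene, was at 31.0, 32.2 and 34.1 FPKM in WT leaves and 1.46, 2.23 and 3.39 FPKM in mutant leaves, 13.7-fold lower without overlap (log2 fold change -3.35 with SE 0.33, adjusted p = 5.9e-05). TIFY6B, a JAZ repressor gene, rose from 30.4, 29.1 and 28.7 FPKM to 59.0, 54.5 and 52.7 FPKM (log2 fold change 0.89 with SE 0.17, adjusted p = 0.0028), and TIFY10B, the highest of the list, was at 82.8, 96.6 and 69.4 FPKM and 102, 101 and 76.7 FPKM and missed the threshold (log2 fold change 0.16, adjusted p = 0.76). Of 7 defence genes 1 rose and 1 fell. The one that fell was NPR1 (Os01g0194300), a coactivator in salicylate signalling, at 20.7, 15.5 and 14.3 FPKM in WT leaves and 3.74, 7.75 and 5.91 FPKM in mutant leaves (log2 fold change -1.42 with SE 0.23, adjusted p = 0.00095). PBZ1, a pathogenesis-related protein gene and the highest of the list, was at 475, 307 and 116 FPKM in WT leaves and 101, 465 and 778 FPKM in mutant leaves, and both groups were spread widely and overlapped (log2 fold change 0.37, SE 0.81, adjusted p = 0.75).

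Diterpene phytoalexins are antimicrobial compounds that rice makes from gene clusters on chromosomes 2 and 4. Of 7 genes 1 rose, at a median log2 fold change of 1.61, and the mutant libraries disagreed among themselves. KSL4, which did not pass but enters this median, reached the level tested through the mutant libraries alone. KSL7 was at 0.257, 0.585 and 0.145 FPKM in WT leaves and 1.35, 29.2 and 41.3 FPKM in mutant leaves (log2 fold change 3.45 with SE 1.07, adjusted p = 0.028). The call for KSL7 was lost without WT replicate 1, 2 or 3 or mutant replicate 2 or 3 (adjusted p from 0.059 to 0.093, log2 fold change from 2.68 to 3.59). Without mutant replicate 1 the log2 fold change of KSL7 was 4.76. CPS4, of the momilactone cluster, was at 1.83, 2.42 and 0.824 FPKM in WT leaves and 2.78, 17.8 and 32.8 FPKM in mutant leaves (log2 fold change 2.36, adjusted p = 0.059). CPS4 passed without OE replicate 1 or 2 or mutant replicate 1 (adjusted p from 0.012 to 0.036, log2 fold change from 2.36 to 3.27). Mutant replicate 1 stood close to WT in both genes, and the other mutant libraries far above. KSL10 had 0 reads in WT and 0.0327, 28.1 and 9.15 FPKM in the mutant libraries, at least 397-fold higher in the summed reads against the floor of 3 reads, and did not pass (adjusted p = 0.087). Without mutant replicate 2 it was at least 149.7-fold higher. KSL10 passed without mutant replicate 1 (adjusted p = 0.0085, log2 fold change 4.10). CPS2, the highest of the list, was at 33.0, 28.6 and 15.3 FPKM in WT leaves and 1.66, 28.2 and 9.05 FPKM in mutant leaves and overlapped (log2 fold change -1.46, adjusted p = 0.13). CPS2 passed without mutant replicate 2 (adjusted p = 0.011, log2 fold change -2.30). The summed level of the list was 17.92 to 39.3 FPKM in WT, and 7.97, 118 and 102 FPKM in mutant replicates 1 to 3. What sets the mutant libraries apart from each other was not tested.

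Clock genes follow the time of day. CCA1 (Os08g0157600), a clock transcription factor that peaks near dawn, was at 9.01, 6.89 and 9.20 FPKM in WT leaves and 464, 381 and 352 FPKM in mutant leaves. The lowest mutant library was 38.2 times the highest WT library (log2 fold change 5.42 with SE 0.14, adjusted p = 8.8e-08). LUX (Os01g0971800), a component of the evening complex that represses morning genes, was at 266, 254 and 239.6 FPKM in WT leaves and 3.63, 1.36 and 7.74 FPKM in mutant leaves, 59.7-fold lower (log2 fold change -5.80 with SE 0.37, adjusted p = 5.8e-06). Without mutant replicate 3 its mean was 102-fold lower. The evening genes PRR1 and GI were lower too, at 63.7, 51.5 and 70.7 FPKM and 579.5, 467 and 491 FPKM in the mutant against 165, 173 and 179 FPKM and 709, 693 and 697 FPKM in WT (log2 fold change -1.47 and -0.46, adjusted p = 1.4e-05 and 0.016). The call for GI was lost without WT replicate 1 or mutant replicate 2 (adjusted p from 0.0521 to 0.061, log2 fold change from -0.45 to -0.39). PRR95, a pseudo-response regulator gene, fell from 676, 702 and 786 FPKM to 352, 237 and 288 FPKM (log2 fold change -1.32 with SE 0.16, adjusted p = 0.00022). In all, 1 of 8 clock genes rose, 4 fell and 3 did not pass. The 3 were ELF3-1, an evening complex gene, PRR37 and PRR73 (log2 fold change -0.05, -0.21 and -0.13, adjusted p = 0.66, 0.23 and 0.34). Of 3 phytochrome genes, which sense red light, PHYC fell from 45.6, 45.9 and 43.8 FPKM to 28.6, 26.6 and 30.9 FPKM (log2 fold change -0.64 with SE 0.08, adjusted p = 0.00022) and PHYB from 28.9, 27.03 and 25.4 FPKM to 19.3, 19.3 and 22.7 FPKM (log2 fold change -0.39 with SE 0.09, adjusted p = 0.0069). Of 7 flowering genes 4 fell and 1 rose. MADS56, the highest of the list, went from 159.7, 145 and 131 FPKM to 73.2, 70.5 and 88.9 FPKM (log2 fold change -0.90 with SE 0.11, adjusted p = 0.00023), while MADS18 rose from 64.9, 64.7 and 50.9 FPKM to 115, 103 and 110.3 FPKM (log2 fold change 0.86 with SE 0.12, adjusted p = 0.00049). The calls among clock genes and those among genes of photosynthesis, sugar, nitrogen and water transport come from the same 6 libraries, and a difference in the hour of sampling and an effect of the genotype cannot be told apart. Cell division genes were low, and 1 of 3 tested passed, PCNA, the clamp of DNA replication, with a log2 fold change of -0.28 (adjusted p = 0.041, SE 0.10). The call for PCNA was lost without WT replicate 2 or 3, OE replicate 2 or 3 or mutant replicate 1, 2 or 3 (adjusted p from 0.0516 to 0.15, log2 fold change from -0.31 to -0.19).

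The libraries that overexpressed OsCOMT give a second set of values beside the same WT libraries for 7 of the genes described above, chosen after their values were seen. RCA was at 174, 227 and 111 FPKM in the OE libraries, against 193, 184 and 198 FPKM in WT. PIP2;1 was at 68.9, 58.2 and 51.9 FPKM, NIA1 at 6.12, 1.70 and 2.92 FPKM and SWEET2B at 0.657, 0.559 and 1.96 FPKM. Each of these ranges lay far below that of the mutant. TIP4;1 was at 238, 145 and 166 FPKM, SAPK9 at 128, 85.1 and 109 FPKM and LUX at 334, 242 and 292 FPKM in OE, each far above the mutant. Both comparisons share the WT libraries and are not independent.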

How the data were processed

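RNA-seq libraries of rice leaves were compared, 3 of WT, 3 of OE and 3 of the OsCOMT mutant. The authors deposited 1 table of FPKM per gene. Bowtie 0.12.2, Cuffdiff and the IRGSP-1.0 build are named per the submitters' processing notes. How reads of several genes or of each strand were counted is not given in the sources used here. The table also holds 1 column that matches no sample, which was not used. Low FPKM values were whole multiples of 1 step per gene and library, which gave whole reads for 30062 of 30062 genes above 0 (relative tolerance 3e-07), 10659256 to 11789677 per library. A gene above 0 in only 1 library gives whole reads by construction, so the count is no check for such genes.

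Values were analysed as log2(FPKM + 1) with limma 3.58.1 in R 4.3.3, in 1 fit of all 9 libraries with a mean-variance trend. Fold changes on this scale understate the change of low genes. P-values were two-sided and adjusted by Benjamini-Hochberg over 19850 genes, those averaging 1 FPKM or more, and the threshold was 0.05. Alternatives changed the pseudocount, the filter, the scaling, the libraries in the fit, the trend and the replicate block, used limma voom on the recovered reads as counts, and left out each library in turn.

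Gene names, from general knowledge, were kept only where the RefSeq gene table of assembly ASM3414082v1 held the name or an alias at the matching place on the same chromosome, which was so for 418 of 575 pairs of name and identifier in 43 lists. Some matched through an alias (PAL1 as ZB8, FD1 as ADI1, LUX as PCL1, LOX7 as CM-LOX1). In each list the member of highest mean FPKM and up to 3 of smallest adjusted p were described in full, and others could be named with their values. The comparison, its members and the lists were chosen with earlier results of these data known. No sequences are shown, and 1 gene is not reported here. Depth limits low genes most, and bounds on folds against 0 reads use a floor of 3 reads over a group and cover counting error only.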

Additional observations from a re-analysis of the deposited data

How the results depend on the processing

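The number of genes past the threshold lay between 6523 (a minimum mean of 5 FPKM) and 8792 (no filter), beside 8333, and between 6590 and 8556 when 1 library was left out. The number past it with a change of at least 1 lay between 2773 and 3186 when 1 library was left out, and fell to 1653 with a pseudocount of 5, which shrinks the change of low genes. Of the genes past the threshold 46.6% were higher, 49.6% under quantile normalization and 44.9% under upper-quartile scaling. The median of all genes moved from -0.01 to 0.01 under quantile normalization and to -0.03 under upper-quartile scaling. Deviations of same-numbered WT and mutant libraries had correlations of -0.07, 0.20 and -0.03, and those of differently numbered libraries reached 0.22. No pairing by number was seen, but 3 libraries per group cannot exclude one. With the replicate block 8318 genes passed, 2991 of them with a change of at least 1.

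Over 159 named genes and 19 alternatives, 2876 of 3013 values kept their direction and side of the threshold, 84 lost the threshold, 34 reached it and 19 changed sign, each in a gene that was not past it, and the cause was not tested. Under quantile normalization the log2 fold change was 0.028 for PETC, 0.0095 for GDH1, 0.12 for GLUA1. With 1 library left out it ranged from -0.0027 to 0.68 for RBCS2, -0.19 to 0.032 for GLO1, -0.19 to 0.094 for GDH1, -0.37 to 0.35 for CAD2, -0.23 to 0.0058 for CESA1, -0.090 to 0.15 for CESA3, -0.11 to 0.36 for RCCR1, -0.24 to 1.22 for PBZ1, -0.017 to 0.14 for SLR1, -0.14 to 0.12 for GLUA1 and -0.0085 to 0.24 for TPP6. In the antenna list, where 0 genes passed, 2 were higher and 1 lower under quantile normalization and 1 each way with voom. In the phytoalexin list 1 gene was higher, 3 under quantile normalization and 0 with voom. Precision at this depth limits genes near 1 FPKM most.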

Other observations

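Some genes had no read in 1 of the WT and mutant groups. At a mean of at least 1 FPKM in the other group, 12 tested genes had 0 reads in the 3 WT libraries and 9 had 0 reads in the 3 mutant libraries. LEA3, RAB16A and KSL10, with 969, 225 and 1129 reads over the 3 mutant libraries, are among the 12. KSL10 did not pass the threshold and was also read in the OE libraries, at 0, 9.20 and 0.218 FPKM.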
